A study of Saccharomyces cerevisiae with 18 samples.

Results

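The 30 genes described here encode the machinery that builds, divides and segregates peroxisomes in *Saccharomyces cerevisiae*, together with 3 transport proteins of the peroxisomal membrane. They were taken by gene symbol, by a rule that uses no measured value, but were chosen with earlier results of these data known. They are 24 *PEX* genes, *INP1*, *INP2*, *VPS1*, *ANT1*, *PXA1* and *PXA2*. All 30 were found, each with 1 probe set of its own, among the 5698 *S. cerevisiae* genes on the arrays. RNA came from the haploid strain W303 and from its derivative W303-Δ*sky1*, which lacks the SR protein kinase gene *SKY1*. Both strains are MATa and share the adenine and permease alleles *ade2-1* and *can1-100*, the histidine allele *his3-11,15* given in the methods of the study, a *leu2* allele that carries the mutations 3 and 112, and the tryptophan and uracil markers *trp1-100* and *ura3-52*. Cells in complete synthetic medium were divided at mid-growth, and 1 aliquot received 600 µM cisplatin in DMSO for 4 h while the other received DMSO alone and is called untreated here. Each of the 4 groups had 3 biological replicates. Both W303-Δ*sky1* groups come from 1 derivative strain, so that the deletion cannot be told apart from anything else in which that strain may differ from W303.

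Peroxisomes are bounded by a single membrane and, in yeast, carry out the whole of fatty acid β-oxidation. Their matrix enzymes are made in the cytosol and imported folded. Pex5 binds those with the C-terminal signal PTS1, and Pex7, with a co-receptor, binds those with the N-terminal signal PTS2. The loaded receptors dock at the membrane, release their cargo, and are ubiquitinated and pulled back to the cytosol. On glucose most of these genes are expressed at basal levels, and growth on oleate induces many of them through the activators Oaf1, Pip2 and Adr1.

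The arrays were compared in 3 tables of 6 arrays, each normalized on its own. The first set treated against untreated W303, the second the untreated strains against each other, and the third the treated strains. The first table shares its untreated W303 arrays with the second and its treated W303 arrays with the third. All values are log2 signals, in which a difference of 1 is 2-fold. The array also carries *S. pombe* probe sets, used here as the background, and their 95th percentile lay between 1.24 and 1.34 on each array. All 30 genes lay above it on all arrays, from a lowest value of 4.36 upwards. *SKY1* read between 7.98 and 8.18 on the W303 arrays and between 0.54 and 1.43 on the W303-Δ*sky1* arrays. Of 6 a-specific genes, which mark MATa cells, 5 were lower in untreated W303-Δ*sky1* and all 6 under cisplatin (limma, adjusted p under 0.05). Over all genes 27.4% and 37.8% were called lower. At least 1.6-fold lower were 3 and 2 of the 6, against 5.28% and 11.2% of all genes. In the second table the mean log2 signal of the 6 per array lay between 8.01 and 8.07 in untreated W303 and between 7.15 and 7.27 in untreated W303-Δ*sky1*. In the third table it lay between 8.02 and 8.06 in treated W303 and between 7.11 and 7.15 in treated W303-Δ*sky1*. In the first table it lay between 8.072 and 8.125 in untreated W303 and between 8.113 and 8.141 in treated W303. The mean of 4 α-specific genes lay between 2.94 and 3.44 on all arrays. Their levels differed, with *SAG1* at a mean of 7.17 and *MFALPHA1* at 1.58 in untreated W303 of the second table. *STE3* was called higher in untreated W303-Δ*sky1* (0.41, limma, adjusted p = 0.0181) and *SAG1* in treated W303-Δ*sky1* (0.27, adjusted p = 0.00152). Over all genes 24.9% and 32.8% were called higher. The call of *STE3* was lost without untreated W303 replicate 3 (0.37, adjusted p = 0.064). It was also lost without untreated W303-Δ*sky1* replicate 1 (0.38, adjusted p = 0.06) or replicate 2 (0.39, adjusted p = 0.0559). None of the 10 genes was at background on all arrays of a group. In the first table *MFALPHA1* lay below background on untreated W303 replicates 1 (1.26 against 1.27) and 3 (1.25 against 1.34). It was also below background there on treated W303 replicate 1, at 1.07 against 1.29. In the second table *MFALPHA1* lay below background on untreated W303-Δ*sky1* replicate 3, at 1.27 against 1.31. The part of the a-specific shift in the differences below was not tested.

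With cisplatin, 6 of the 30 genes changed in W303. The inheritance gene *INP1*, the RING gene *PEX10* and the membrane insertion gene *PEX19* rose, and *PEX28*, *PEX8* and *PEX2* fell. These 3 and 3 calls (limma, adjusted p under 0.05) stand beside 13.2% of all 5698 genes called higher and 15.3% called lower, and each makes up 10% of the 30 genes. The differences ran from -0.37 for *PEX28* to 0.32 for *INP1*, with a median of 0.04 against -0.0022 for all genes. In absolute size the median difference was 0.13, and 0.15 for all genes, so that neither the share of calls nor the size of the differences set the 30 genes above the array as a whole. None reached the 1.6-fold threshold of the study (0.68 on the log2 scale, with an unadjusted p under 0.01), which 1.58% of all genes passed upwards and 1.53% downwards. At an unadjusted p under 0.05 there were 4 genes higher and 5 lower, against 1147 and 1254 of all 5698 genes. The arrays did not overlap for 8 genes that were higher and 7 that were lower, or 26.7% and 23.3% of the 30, against 22.6% and 23.9% of all genes. Without treated W303 replicate 2 the calls were 1 higher and 1 lower, and without treated W303 replicate 3 there was 1 lower.

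Deletion of *SKY1* without cisplatin was accompanied by higher levels of 10 of the 30 genes and lower levels of none (limma, adjusted p under 0.05). Over all genes, 24.9% were called higher and 27.4% lower. The 10 genes were *PEX2*, *PEX27*, *PEX8*, *INP1*, *PEX6*, *PXA2*, *PEX10*, *PEX21*, *PEX15* and *PEX7*, in falling order of their differences, from 0.67 down to 0.21. At an unadjusted p under 0.05 there were 13 higher and 3 lower, against 1590 and 1774 of all 5698 genes. No gene passed the 1.6-fold threshold in either direction, against 4.93% of all genes upwards and 5.28% downwards, although *PEX2* was at 1.59-fold. The median of the 30 genes was 0.13 and that of all genes -0.02. The arrays of the strains did not overlap for 15 genes that were higher and 5 that were lower, or 50% and 16.7% of the 30, against 29.5% and 32.5% of all genes.

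Under cisplatin, 15 of the 30 genes were higher in W303-Δ*sky1*, or 50%, and 3 were lower, or 10% (limma, adjusted p under 0.05), against 32.8% and 37.8% of all genes. Of these, *PXA1*, *PEX2*, *PEX27* and *PEX8* were at least 1.6-fold higher, 13.3% of the genes against 8.78% of all genes. None of the 30 was lower by 1.6-fold, which 11.2% of all genes were. At an unadjusted p under 0.05 there were 17 genes higher and 3 lower, against 1919 and 2216 of all 5698 genes. The differences ran from -0.25 for *PEX32* to 1.22 for *PXA1*, with a median of 0.18 against -0.03 for all genes. In absolute size the median difference was 0.21 for the 30 genes and 0.33 for all genes. The arrays did not overlap for 18 genes that were higher and 3 that were lower, or 60% and 10% of the 30, against 34.7% and 39.2% of all genes.

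**Figure D1:**
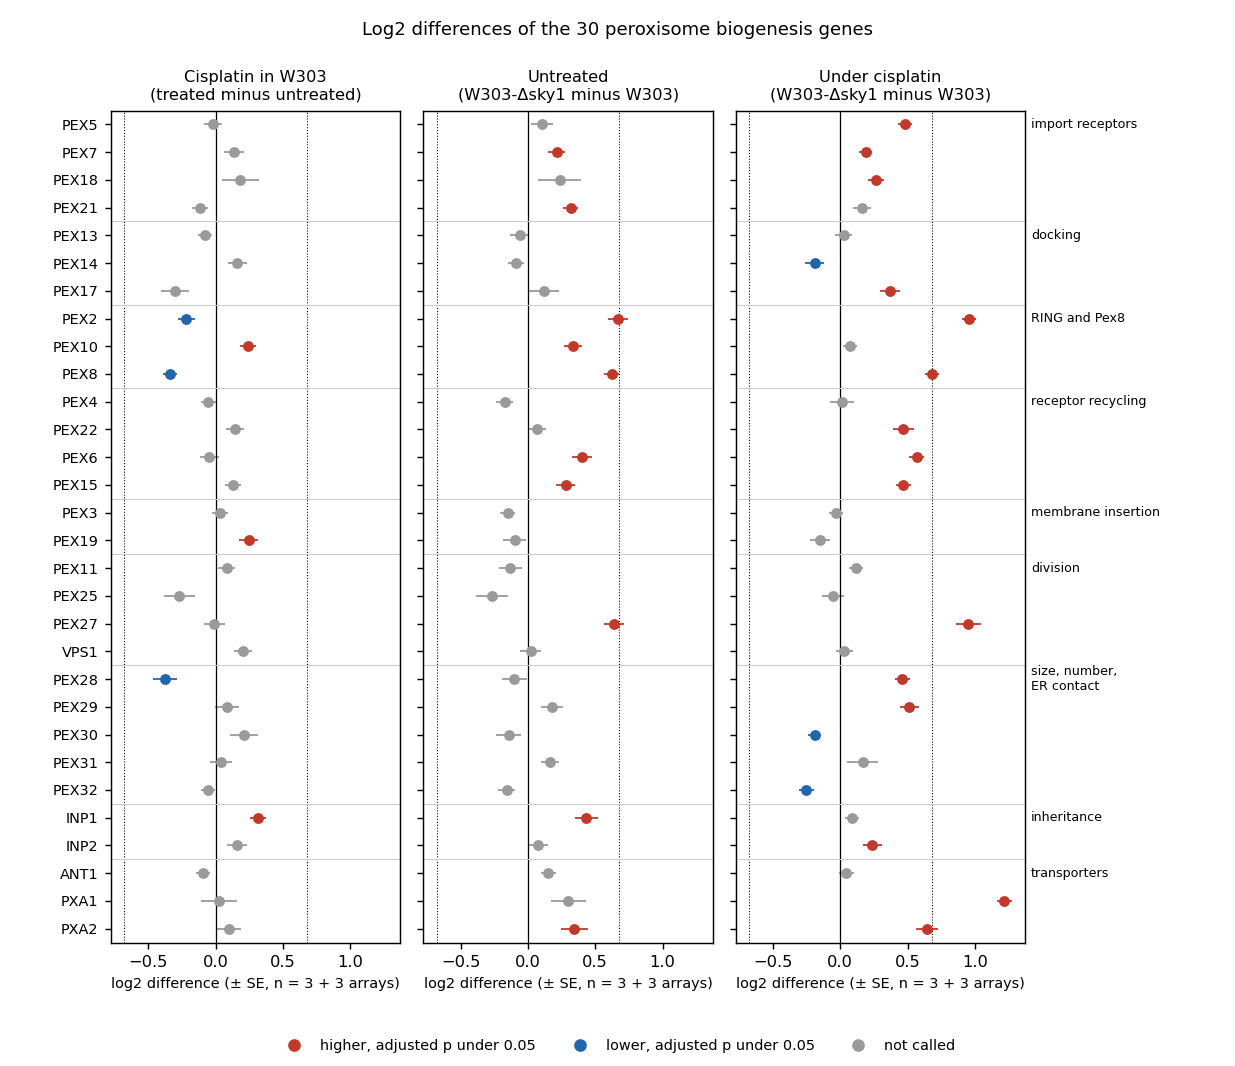
Log2 difference of each of the 30 genes in the 3 comparisons (x axis, ± SE, 3 arrays against 3), grouped by role; red and blue mark an adjusted p under 0.05 and dotted lines the 1.6-fold threshold. In the first panel all points lie inside the dotted lines, from -0.37 to 0.32, while under cisplatin W303-Δ*sky1* reaches 1.22 at *PXA1*.

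All 4 import receptor and co-receptor genes were called higher in W303-Δ*sky1* in at least 1 condition, as were 37.6% of all genes and 18 of the 30. None was called with cisplatin in W303. *PEX5* read 7.25, 7.19 and 7.25 on the treated W303 arrays, against 7.70, 7.71 and 7.73 on the treated W303-Δ*sky1* arrays. These groups did not overlap, and the difference was 0.48 ± 0.05 (SE; limma, adjusted p = 3.88e-05). Without cisplatin the difference of this PTS1 receptor gene was 0.11 (adjusted p = 0.294), and cisplatin in W303 left it at -0.02 (adjusted p = 0.839). *PEX7*, for the PTS2 receptor, was higher in W303-Δ*sky1* by 0.21 untreated (limma, adjusted p = 0.0208) and by 0.19 treated (adjusted p = 0.00964). The first of these calls was lost without untreated W303 replicate 3 (0.21, adjusted p = 0.0751) or untreated W303-Δ*sky1* replicate 1 (0.19, adjusted p = 0.0697), and with all probe sets tested (adjusted p = 0.0813). *PEX18* and *PEX21*, which encode related co-receptors of Pex7, were each called in a different comparison. *PEX21* was higher by 0.32 in the untreated mutant (limma, adjusted p = 0.00263), and *PEX18* by 0.26 in the treated one (adjusted p = 0.00361). In the other strain comparison they had 0.16 (limma, adjusted p = 0.0622) and 0.24 (adjusted p = 0.248). *PEX21* passed there with the replicate number as a block (adjusted p = 0.0163) and without treated W303-Δ*sky1* replicate 2 (0.21, adjusted p = 0.029). *PEX18* passed without untreated W303 replicate 1 (0.41, adjusted p = 0.0215), and with cisplatin in W303 without untreated W303 replicate 1 (0.34, adjusted p = 0.0212). The difference was 0.08 without untreated W303 replicate 2 between the untreated strains and 0.04 without untreated W303 replicate 2 with cisplatin in W303. Its untreated W303 arrays were spread from 4.99 to 5.66.

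Of the docking complex, *PEX17* and *PEX14* were called, in opposite directions, between the treated strains. *PEX14* read 7.36, 7.20 and 7.21 on the treated W303 arrays, against 7.17, 7.03 and 7.00 on the treated W303-Δ*sky1* arrays. The groups did not overlap, with a difference of -0.19 ± 0.07 (SE; limma, adjusted p = 0.0358). Pex14 is the docking protein at which the loaded receptors arrive. This call was lost without treated W303 replicate 1 (-0.14, adjusted p = 0.11), treated W303 replicate 3 (-0.21, adjusted p = 0.0527), treated W303-Δ*sky1* replicate 2 (-0.17, adjusted p = 0.0986) or treated W303-Δ*sky1* replicate 3 (-0.16, adjusted p = 0.116), and after a further quantile normalization (adjusted p = 0.056). It was also lost with all probe sets tested (adjusted p = 0.0968) and after centring on array medians (adjusted p = 0.0528). *PEX17*, for its peripheral partner, was higher by 0.37 ± 0.08 (SE; limma, adjusted p = 0.00219). In W303, cisplatin left *PEX17* at -0.30 (limma, adjusted p = 0.0595) which passed without untreated W303 replicate 3 (-0.39, adjusted p = 0.0417). *PEX13*, for the SH3 protein of the complex, had -0.08, -0.06 and 0.03 in the 3 comparisons and was called in none (adjusted p = 0.29, 0.511 and 0.728).

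*PEX2* and *PEX10* encode RING ubiquitin ligases of the export complex, and *PEX8* the protein that joins this complex to the docking proteins. All 3 were higher in untreated W303-Δ*sky1*, where they held 3 of the 10 calls. *PEX2* read 6.86, 7.00 and 6.80 on the untreated W303 arrays, against 7.63, 7.50 and 7.54 on those of untreated W303-Δ*sky1*. *PEX8* read 8.29, 8.28 and 8.29 on the untreated W303 arrays, against 8.94, 8.90 and 8.89 on those of untreated W303-Δ*sky1*. The strains were well separated for both genes, with differences of 0.67 ± 0.07 (SE; limma, adjusted p = 0.000255) for *PEX2* and 0.62 ± 0.06 (SE; limma, adjusted p = 0.000109) for *PEX8*. Of all genes, *PEX2* stood at the 94.9th percentile of differences and *PEX8* at the 93.7th. *PEX10* was higher by 0.34 ± 0.07 (SE; limma, adjusted p = 0.0043).

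In W303 treated with cisplatin, *PEX2* and *PEX8* fell while *PEX10* rose. *PEX8* read 8.29, 8.24 and 8.31 on the untreated W303 arrays, against 7.91, 7.95 and 7.96 on the treated W303 arrays. *PEX2* read 6.82, 6.97 and 6.80 on the untreated W303 arrays, against 6.68, 6.66 and 6.59 on the treated W303 arrays. *PEX10* read 6.36, 6.25 and 6.27 on the untreated W303 arrays, against 6.59, 6.52 and 6.49 on the treated W303 arrays. Treated and untreated arrays did not overlap for any of these genes. The differences were -0.34 ± 0.05 (SE; limma, adjusted p = 0.00305) for *PEX8*, -0.22 ± 0.07 (SE; limma, adjusted p = 0.0432) for *PEX2* and 0.24 ± 0.06 (SE; limma, adjusted p = 0.0186) for *PEX10*. *PEX8* kept its call with each array left out. The call of *PEX2* was lost without untreated W303 replicate 2 (-0.16, adjusted p = 0.0753), untreated W303 replicate 3 (-0.25, adjusted p = 0.0683), treated W303 replicate 1 (-0.24, adjusted p = 0.0743), treated W303 replicate 2 (-0.23, adjusted p = 0.107) or treated W303 replicate 3 (-0.19, adjusted p = 0.146), and that of *PEX10* without untreated W303 replicate 3 (0.23, adjusted p = 0.0718), treated W303 replicate 1 (0.21, adjusted p = 0.0565) or treated W303 replicate 2 (0.25, adjusted p = 0.0652). With all probe sets of the array tested, the adjusted p was 0.131 for *PEX2* and 0.0726 for *PEX10*.

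*PEX2* and *PEX8* were also higher in W303-Δ*sky1* when both strains were treated. *PEX2* read 6.62, 6.62 and 6.55 on the treated W303 arrays, against 7.58, 7.55 and 7.53 on the treated W303-Δ*sky1* arrays. *PEX8* read 7.88, 7.86 and 7.88 on the treated W303 arrays, against 8.59, 8.54 and 8.53 on the treated W303-Δ*sky1* arrays. All treated W303-Δ*sky1* arrays lay above all treated W303 arrays. *PEX2* was 1.94-fold higher, with a log2 difference of 0.96 ± 0.05 (SE; limma, adjusted p = 9.95e-07). *PEX8* was 1.604-fold higher, with 0.68 ± 0.05 (SE; limma, adjusted p = 5.13e-06), just past the 1.6-fold threshold. With 1 array left out, *PEX8* fell as low as 0.66, below the threshold, without treated W303-Δ*sky1* replicate 1. *PEX10*, their partner, had 0.07 (limma, adjusted p = 0.232).

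**Figure D2:**
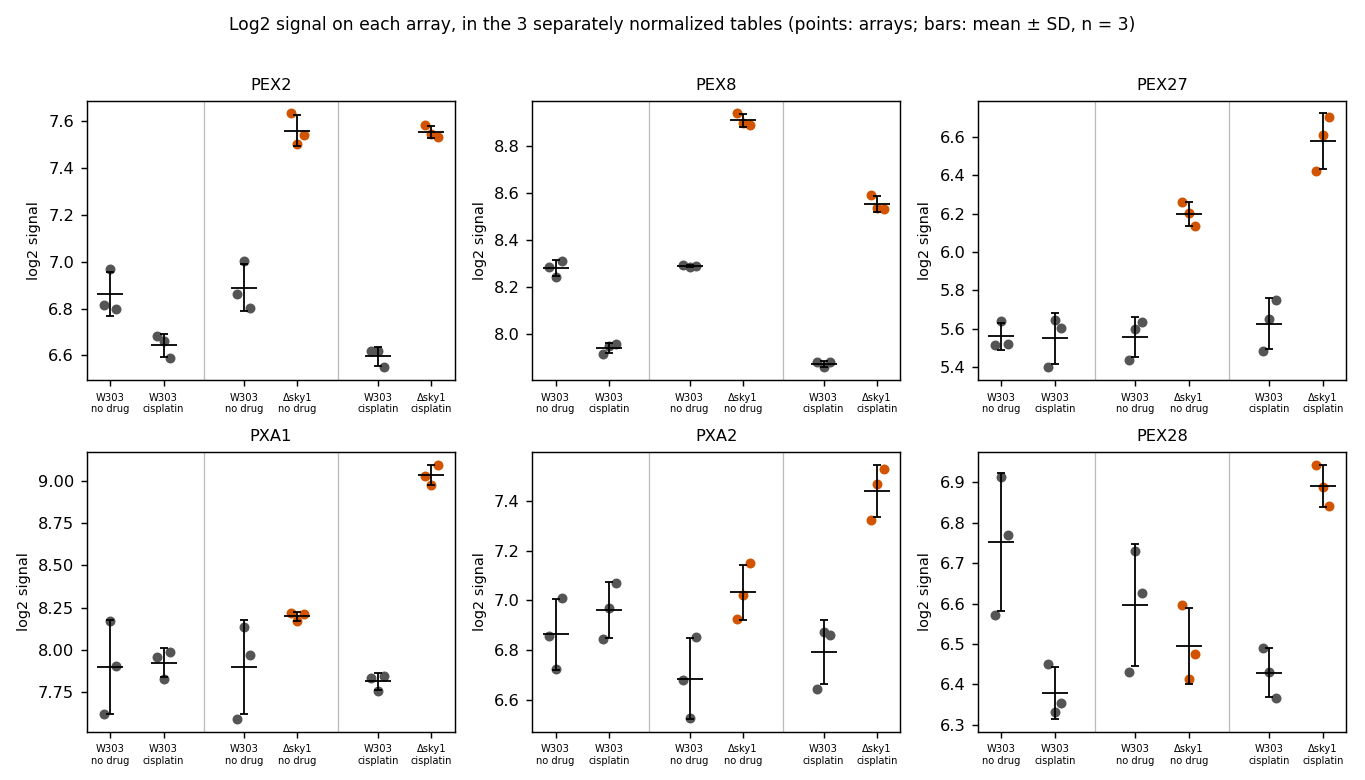
Log2 signal (y axis) on each array for 6 of the genes, with the mean ± SD of 3 arrays, for each pair of groups in its own table; the tables were normalized separately, so levels are compared only within a pair. These 6 genes were all called higher between the treated strains, and their treated W303-Δ*sky1* arrays lie above the treated W303 arrays. Of the 30 genes, 18 were higher there without overlap and 3 lower, or 60% and 10%, against 34.7% and 39.2% of all genes. *PXA1* runs from 8.98 to 9.09 on the treated W303-Δ*sky1* arrays.

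The receptor recycling genes showed no call with cisplatin in W303. *PEX6*, which encodes an AAA ATPase that pulls receptors out of the membrane, was higher in W303-Δ*sky1* in both conditions. *PEX6* read 6.63, 6.52 and 6.49 on the treated W303 arrays, against 7.10, 7.10 and 7.14 on the treated W303-Δ*sky1* arrays. The groups did not overlap, and the difference was 0.57 ± 0.06 (SE; limma, adjusted p = 3.16e-05), after 0.40 ± 0.08 (SE; limma, adjusted p = 0.0033) between the untreated strains. *PEX15*, for the membrane anchor of Pex6, had 0.28 untreated (limma, adjusted p = 0.0112) and 0.47 treated (adjusted p = 6.89e-05). *PEX22*, for the anchor of the ubiquitin-conjugating enzyme Pex4, was higher by 0.47 in the treated mutant (limma, adjusted p = 0.000632) and by 0.07 in the untreated one, which was not called (adjusted p = 0.42). *PEX4* itself was called in no comparison, with -0.17 untreated (adjusted p = 0.0534) and 0.01 treated (adjusted p = 0.895).

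*PEX3* and *PEX19*, whose products insert proteins into the peroxisomal membrane, did not share the higher levels of W303-Δ*sky1*. *PEX19* read 8.14, 8.10 and 8.26 on the untreated W303 arrays, against 8.33, 8.39 and 8.50 on the treated W303 arrays. The groups did not overlap, and this chaperone gene rose with cisplatin by 0.25 ± 0.07 (SE; limma, adjusted p = 0.0349). The call was lost without untreated W303 replicate 1 (0.23, adjusted p = 0.0645), untreated W303 replicate 2 (0.21, adjusted p = 0.0709), treated W303 replicate 2 (0.26, adjusted p = 0.0921) or treated W303 replicate 3 (0.20, adjusted p = 0.125), and with all probe sets tested (adjusted p = 0.104). Between the strains *PEX19* had -0.10 untreated (adjusted p = 0.367) and -0.15 treated (adjusted p = 0.0995). With the replicate number as a block the last of these was called lower (adjusted p = 0.0257). *PEX3* had -0.15 between the untreated strains (limma, adjusted p = 0.0552), where the arrays did not overlap, and -0.03 between the treated ones (adjusted p = 0.634). The first of these was called lower with an intensity trend of the variance (adjusted p = 0.0493).

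Of the division genes, *PEX27* was called, and it was higher in W303-Δ*sky1* in both conditions. *PEX27* read 5.44, 5.60 and 5.64 on the untreated W303 arrays, against 6.26, 6.20 and 6.14 on those of untreated W303-Δ*sky1*. *PEX27* read 5.48, 5.65 and 5.75 on the treated W303 arrays, against 6.42, 6.61 and 6.71 on the treated W303-Δ*sky1* arrays. The strains did not overlap in either condition. The differences were 0.64 ± 0.07 (SE; limma, adjusted p = 0.000312) untreated and 0.95 ± 0.09 (SE; limma, adjusted p = 2.44e-05) treated, the latter 1.93-fold. Pex27 is related to Pex25 and Pex11, which shape and divide the organelle. Their genes had -0.27 (limma, adjusted p = 0.0943) and -0.13 (adjusted p = 0.223) between the untreated strains, and -0.06 (adjusted p = 0.567) and 0.12 (adjusted p = 0.0658) between the treated ones. The last of these, of *PEX11*, was called higher after a further quantile normalization (limma, adjusted p = 0.0279) and after centring on array medians (adjusted p = 0.0271). *PEX25* was called lower without untreated W303 replicate 1 (-0.38, adjusted p = 0.0145). Treated against untreated W303, *PEX25* had -0.27 (limma, adjusted p = 0.118), which passed with the replicate number as a block (adjusted p = 0.0461) and without untreated W303 replicate 1 (-0.38, adjusted p = 0.0243). It was -0.14 without untreated W303 replicate 2, and between the untreated strains -0.13 without untreated W303 replicate 2. *VPS1*, for a dynamin-like GTPase of peroxisome fission and vacuolar sorting, had 0.21 there (limma, adjusted p = 0.0544, and 0.0296 with the block). Between the strains *VPS1* had 0.02 and 0.03 (limma, adjusted p = 0.842 and 0.68).

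The 5 genes for peroxisome size, number and contact with the endoplasmic reticulum split in direction under cisplatin. *PEX28* and *PEX29*, which encode related membrane proteins, were higher in treated W303-Δ*sky1*, and *PEX30* and *PEX32* lower. *PEX28* read 6.49, 6.43 and 6.37 on the treated W303 arrays, against 6.94, 6.89 and 6.84 on the treated W303-Δ*sky1* arrays. The difference of *PEX28* was 0.46 ± 0.06 (SE; limma, adjusted p = 0.00011), and that of *PEX29* was 0.51 ± 0.07 (SE; limma, adjusted p = 0.000221). *PEX30* read 8.08, 8.04 and 8.06 on the treated W303 arrays, against 7.86, 7.85 and 7.89 on the treated W303-Δ*sky1* arrays. *PEX32* read 5.43, 5.29 and 5.33 on the treated W303 arrays, against 5.08, 5.11 and 5.11 on the treated W303-Δ*sky1* arrays. The groups did not overlap for any of these genes, with differences of -0.19 ± 0.05 (SE; limma, adjusted p = 0.00757) for *PEX30* and -0.25 ± 0.06 (SE; limma, adjusted p = 0.00351) for *PEX32*. *PEX31*, related to *PEX30* and *PEX32*, had 0.17 (limma, adjusted p = 0.229, and 0.0322 with the replicate number as a block). None of the 5 was called between the untreated strains. *PEX30* was called lower there without untreated W303 replicate 2 (-0.23, adjusted p = 0.0353) and was -0.07 without untreated W303 replicate 1, and *PEX31* higher without untreated W303-Δ*sky1* replicate 1 (0.21, adjusted p = 0.0442).

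*PEX28* was also the largest decrease with cisplatin in W303. *PEX28* read 6.57, 6.91 and 6.77 on the untreated W303 arrays, against 6.45, 6.33 and 6.35 on the treated W303 arrays. The groups did not overlap, although the untreated arrays were spread over a wide range. The difference was -0.37 ± 0.09 (SE; limma, adjusted p = 0.0189), and the call was lost without untreated W303 replicate 3 (-0.36, adjusted p = 0.0644), treated W303 replicate 2 (-0.35, adjusted p = 0.0721) or treated W303 replicate 3 (-0.36, adjusted p = 0.0678) and with all probe sets tested (adjusted p = 0.0516). This comparison and that of the treated strains share the treated W303 arrays, on which *PEX28* was low in both tables.

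*INP1*, whose product holds peroxisomes in the mother cell, was the largest increase with cisplatin in W303. *INP1* read 5.32, 5.20 and 5.25 on the untreated W303 arrays, against 5.53, 5.56 and 5.64 on the treated W303 arrays. *INP1* read 5.10, 4.99 and 5.00 on the untreated W303 arrays, against 5.30, 5.48 and 5.60 on those of untreated W303-Δ*sky1*. Both pairs of groups were separated, by 0.32 ± 0.06 (SE; limma, adjusted p = 0.00747) with the drug and by 0.43 ± 0.09 (SE; limma, adjusted p = 0.00406) between the untreated strains. Both calls held with each array left out, and these comparisons share the untreated W303 arrays. Between the treated strains *INP1* had 0.09 (limma, adjusted p = 0.146, and 0.0129 after a further quantile normalization). *INP2*, for the receptor that hands peroxisomes to the myosin Myo2, was called between the treated strains and in no other comparison, higher by 0.24 ± 0.07 (SE; limma, adjusted p = 0.0171). That call was lost without treated W303 replicate 2 (0.21, adjusted p = 0.0616), treated W303 replicate 3 (0.20, adjusted p = 0.0656) or treated W303-Δ*sky1* replicate 1 (0.19, adjusted p = 0.0521), and with all probe sets tested (adjusted p = 0.0508). In W303 under cisplatin *INP2* had 0.16 (limma, adjusted p = 0.13) and was called without untreated W303 replicate 2 (0.23, adjusted p = 0.0214).

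*PXA1* and *PXA2* encode the subunits of the ABC transporter that brings long-chain acyl-CoA into the peroxisome. *PXA1* showed the largest difference of all 30 genes, between the treated strains. *PXA1* read 7.84, 7.76 and 7.85 on the treated W303 arrays, against 9.03, 8.98 and 9.09 on the treated W303-Δ*sky1* arrays. It was 2.33-fold higher in W303-Δ*sky1*, by 1.22 ± 0.06 (SE; limma, adjusted p = 5.02e-07), and stood at the 98.0th percentile of all genes. *PXA2* read 6.65, 6.87 and 6.86 on the treated W303 arrays, against 7.32, 7.47 and 7.53 on the treated W303-Δ*sky1* arrays. This was 1.56-fold, or 0.65 ± 0.08 (SE; limma, adjusted p = 0.000118), just under the 1.6-fold threshold. With 1 array left out, *PXA2* rose as high as 0.70, above the threshold, without treated W303-Δ*sky1* replicate 1.

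Between the untreated strains *PXA2* was called and *PXA1* was not. *PXA1* read 7.59, 8.13 and 7.97 on the untreated W303 arrays, against 8.22, 8.17 and 8.21 on those of untreated W303-Δ*sky1*. The groups did not overlap, but the W303 arrays were spread, and the difference of 0.30 ± 0.13 (SE; limma, adjusted p = 0.0802) was not called. It was called without untreated W303 replicate 2 (0.42, adjusted p = 0.0156) and was 0.15 without untreated W303 replicate 1. *PXA2* was higher by 0.35 ± 0.10 (SE; limma, adjusted p = 0.019), a call that was lost without untreated W303-Δ*sky1* replicate 3 (0.29, adjusted p = 0.0662) and with all probe sets tested (adjusted p = 0.0524). *ANT1*, for the carrier that supplies the peroxisome with ATP, was called in no comparison, with -0.09, 0.15 and 0.05 (limma, adjusted p = 0.232, 0.0524 and 0.467). The second of these passed when the arrays were centred on their medians (adjusted p = 0.0419).

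The strain comparisons without and with cisplatin share no array. The cultures of each strain were divided before treatment, however, so the comparisons are not independent. They can be set side by side, although no test was made of the difference between them, since their tables were normalized separately. Of the 30 genes, 7 were called higher in W303-Δ*sky1* in both: *PEX2*, *PEX6*, *PEX7*, *PEX8*, *PEX15*, *PEX27* and *PXA2*. They are 70% of the 10 called without the drug and 46.7% of the 15 called with it. Over all genes the corresponding shares were 80.8% of 1419 and 61.3% of 1869. A further 8 genes, or 26.7%, were called higher under cisplatin alone, as were 12.1% of all genes. Without cisplatin alone, *PEX10*, *PEX21* and *INP1* were called higher, or 10%, against 3.91% of all genes. *PEX14*, *PEX30* and *PEX32* were called lower under cisplatin alone, or 10%, against 14.0% of all genes. None of the 30 genes was called in opposite directions. Of all 5698 genes, 50 were called higher without cisplatin and lower under it, and 34 the reverse. The sign was the same for 26 of the 30 genes, or 86.7%, and for 80.6% of all genes.

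**Figure D3:**
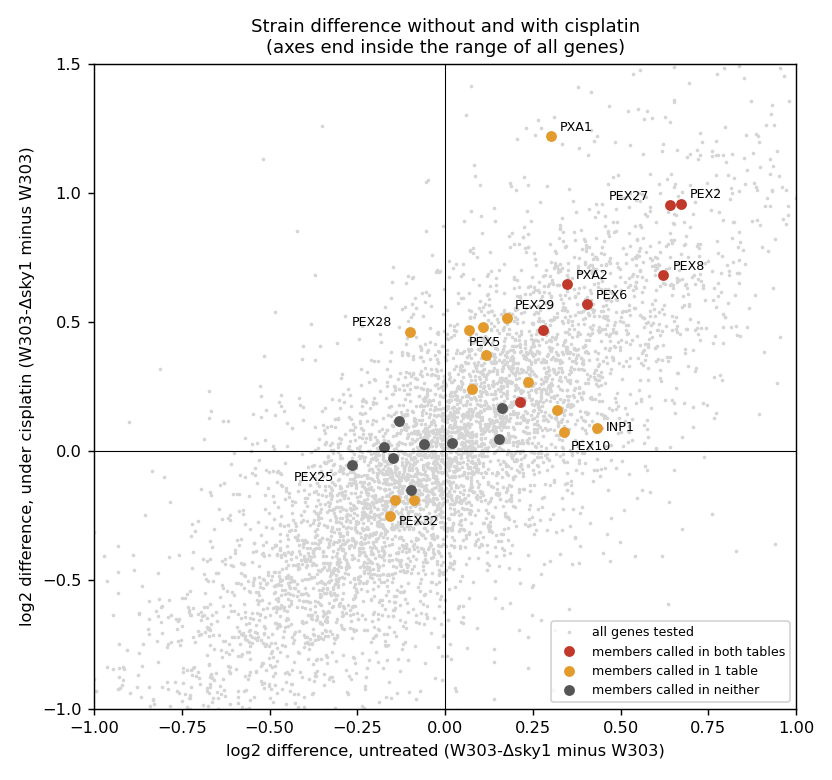
Log2 difference between W303-Δ*sky1* and W303 without cisplatin (x axis) and under cisplatin (y axis), for the 30 genes (coloured points) and all genes tested (grey points, of which those outside the axes are not shown). *PEX2*, *PEX27* and *PEX8* lie high on both axes, whereas *PXA1* lies at 0.30 on the x axis and 1.22 on the y axis.

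Other genes of the peroxisome were examined next to the 30, in lists also chosen with earlier results of these data known. Of 25 genes for matrix enzymes, 17 were higher and 5 lower in treated W303-Δ*sky1*, with a median of 0.66, against 32.8% and 37.8% of all genes. In the untreated mutant 11 were higher and 3 lower, with a median of 0.07, against 24.9% and 27.4% of all genes. The 1.6-fold threshold was passed upwards by 11 genes treated and 4 untreated, against 8.78% and 4.93% of all genes, and downwards by 2 and 0, against 11.2% and 5.28%. The enzymes of β-oxidation stood at the top under cisplatin. *POX1*, for acyl-CoA oxidase, had 1.94, *POT1*, for thiolase, 1.67, and *FOX2*, for the multifunctional enzyme, 1.27 (limma, adjusted p = 2.25e-07, 3.57e-07 and 4.95e-07). *FAA2*, for acyl-CoA synthetase, had 1.19 and *LPX1*, for a peroxisomal lipase, 1.20 (limma, adjusted p = 7.33e-06 and 2.41e-06). The auxiliary enzyme genes *ECI1* and *DCI1* had 0.93 and 0.91, and *MDH3*, *MLS1*, *IDP3* and *CAT2* had 0.99, 0.96, 0.76 and 0.70, all of them called. *STR3*, for a lyase of cysteine and methionine metabolism, was lower, with -1.28, as was *LYS1*, for an enzyme of lysine synthesis, with -1.15 (limma, adjusted p = 1.09e-06 and 5.38e-07). *AAT2*, for aspartate aminotransferase, had 0.09 there (adjusted p = 0.158) and 0.29 between the untreated strains (adjusted p = 0.00954).

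Without cisplatin the matrix enzyme genes past the 1.6-fold threshold were *MLS1* (1.31), *POX1* (1.28), *POT1* (0.81) and *TES1* (0.70). *FAA2* had 0.33 there (limma, adjusted p = 0.00654) and *ECI1*, *DCI1*, *IDP3* and *CAT2* were not called, with adjusted p of 0.296, 0.382, 0.685 and 0.924. *DCI1* passed without untreated W303 replicate 2 (0.20, adjusted p = 0.0398). In W303 under cisplatin, 5 of the 25 genes were higher and 5 lower, with a median of -0.04, against 13.2% and 15.3% of all genes. The calls of *FOX2* (0.16, adjusted p = 0.0497) and *LPX1* (-0.27, adjusted p = 0.0387) did not hold. *FOX2* lost its call with each array left out in turn (limma, adjusted p between 0.0656 and 0.166), and *LPX1* without untreated W303 replicate 1 (-0.27, adjusted p = 0.0596), untreated W303 replicate 2 (-0.20, adjusted p = 0.0708), treated W303 replicate 1 (-0.31, adjusted p = 0.0516), treated W303 replicate 2 (-0.26, adjusted p = 0.111) or treated W303 replicate 3 (-0.23, adjusted p = 0.132). *DCI1* (-0.40, adjusted p = 0.0279) lost its call without untreated W303 replicate 3 (-0.43, adjusted p = 0.0605), treated W303 replicate 2 (-0.39, adjusted p = 0.0885) or treated W303 replicate 3 (-0.34, adjusted p = 0.0996), *PNC1* (-0.28, adjusted p = 0.0197) without untreated W303 replicate 3 (-0.28, adjusted p = 0.0679), treated W303 replicate 1 (-0.23, adjusted p = 0.058) or treated W303 replicate 3 (-0.29, adjusted p = 0.0628), and *CIT2* (-0.32, adjusted p = 0.0145) without treated W303 replicate 2 (-0.33, adjusted p = 0.0517) or treated W303 replicate 3 (-0.29, adjusted p = 0.0613). With all probe sets tested, *FOX2*, *LPX1*, *DCI1* and *PNC1* also lost their calls (limma, adjusted p = 0.18, 0.104, 0.0669 and 0.0642). *STR3* rose by 3.92 and *GTO1*, for a glutathione transferase, by 0.83 (limma, adjusted p = 1.88e-08 and 0.000269). The β-oxidation genes *POX1* and *POT1* had 0.03 and 0.08 (adjusted p = 0.825 and 0.323).

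Among 10 further genes for peroxisome assembly, division and turnover, 6 were higher and 2 lower in treated W303-Δ*sky1*, against 32.8% and 37.8% of all genes, and 3 and 2 in the untreated mutant, against 24.9% and 27.4%. *ATG36*, whose product marks peroxisomes for autophagy, was higher by 0.70 ± 0.14 (SE; limma, adjusted p = 0.00377) untreated and 1.03 ± 0.07 (SE; limma, adjusted p = 3.13e-06) treated. *PEX9*, for a further PTS1 receptor that is made on oleate, had -0.06 (limma, adjusted p = 0.789) and 0.85 (adjusted p = 7.74e-05). *MDV1*, for an adaptor in mitochondrial and peroxisomal fission, had 0.44 and 0.72 (limma, adjusted p = 0.00578 and 1.43e-05). *PEX34*, for a membrane protein of peroxisome number, was lower in both, with -0.38 and -0.36 (limma, adjusted p = 0.00232 and 0.000521). *MYO2*, for the myosin that carries peroxisomes to the bud, was also lower in both, with -0.27 and -0.20 (limma, adjusted p = 0.0308 and 0.00936). Its first call was lost without untreated W303 replicate 2 (-0.21, adjusted p = 0.0738), untreated W303 replicate 3 (-0.28, adjusted p = 0.0774), untreated W303-Δ*sky1* replicate 1 (-0.21, adjusted p = 0.103) or untreated W303-Δ*sky1* replicate 3 (-0.29, adjusted p = 0.0595) and with all probe sets tested (adjusted p = 0.0859). Under cisplatin in W303, 3 of the 10 were called, all higher, and none reached 1.6-fold, while 13.2% and 15.3% of all genes were called higher and lower. Among these 3, *FIS1* had 0.24 (limma, adjusted p = 0.0138). Its call was lost without treated W303 replicate 2 (0.23, adjusted p = 0.0649) or replicate 3 (0.22, adjusted p = 0.0618). Testing all probe sets also removed it (adjusted p = 0.0624). Of 4 regulator genes, 1 was higher and 1 lower in the untreated mutant, against 24.9% and 27.4% of all genes. Under cisplatin 3 were higher and 1 lower, against 32.8% and 37.8%. The activator gene *ADR1* was higher by 0.69 in untreated W303-Δ*sky1* (limma, adjusted p = 0.00213), past the 1.6-fold threshold, and by 0.33 under cisplatin (adjusted p = 0.00209). *OAF1* and *PIP2* had 0.16 and 0.18 untreated (limma, adjusted p = 0.0932 and 0.0775) and were called higher under cisplatin, with 0.27 and 0.26 (adjusted p = 0.004 and 0.0148). *OAF3*, for a repressor of oleate-responsive genes, was lower in both, with -0.31 and -0.40 (limma, adjusted p = 0.0101 and 0.0015). The call of *PIP2* was lost without treated W303-Δ*sky1* replicate 3 (0.22, adjusted p = 0.0558). In the untreated strains *PIP2* passed after a further quantile normalization (adjusted p = 0.0421). In W303 none of these activator genes was called with cisplatin, where *ADR1*, *OAF1* and *PIP2* had adjusted p of 0.983, 0.186 and 0.691.

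**Figure D4:**
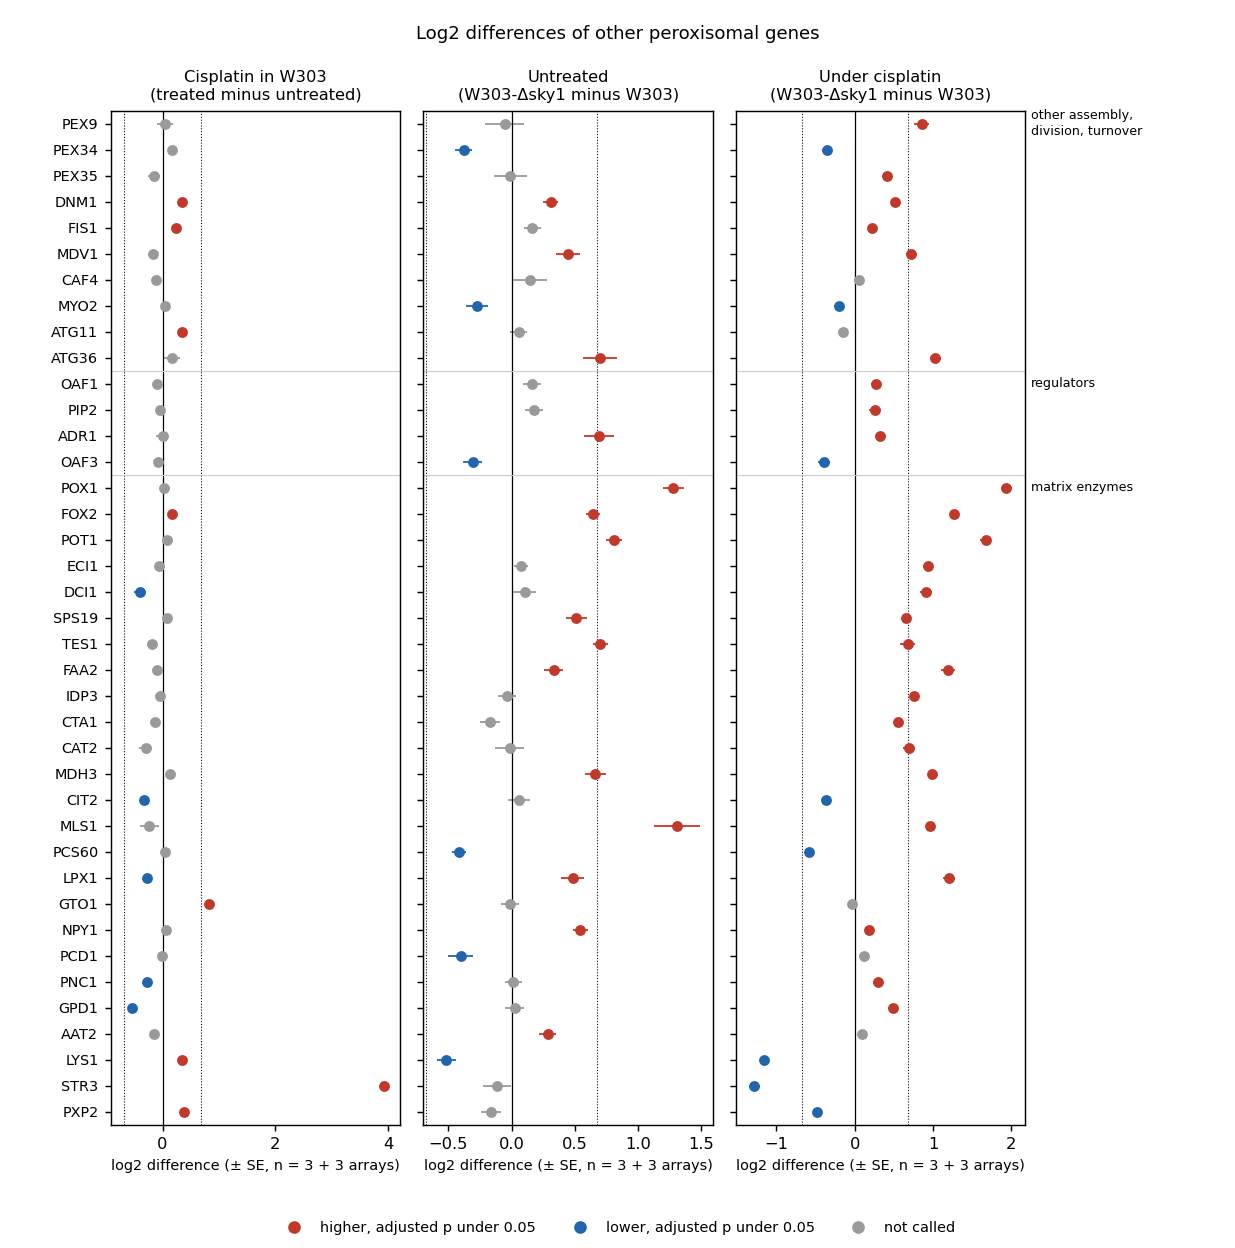
Log2 difference (x axis, ± SE, 3 arrays against 3) of 10 further assembly, division and turnover genes, 4 regulators and 25 matrix enzyme genes in the 3 comparisons, each panel with its own scale; colours and dotted lines as for the 30 genes. Red points prevail among the matrix enzymes under cisplatin, 17 of 25, while the first panel is set by *STR3* at 3.92.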

How the data were processed

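RNA of 12 cultures was hybridized by the authors to GeneChip Yeast Genome 2.0 arrays. Each of the 3 deposited tables holds log2 values of 6 arrays, which the authors summarized by RMA in a run of its own, and 6 arrays stand in a pair of tables. The deposited p-value and FDR columns hold the authors' limma comparisons and were not used, nor were their group means. The genome build and annotation version are not given in the sources used here.

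Probe sets with a locus entry, 5714 of 10715, were taken as *S. cerevisiae*, with 1 kept per locus (5698 genes) and no filter on low values. Each table was fitted with limma 3.58.1 in R 4.3.3, without a block, and p-values were adjusted over all genes (Benjamini-Hochberg). A gene was called at an adjusted p under 0.05. The 1.6-fold rule also asked for an unadjusted p under 0.01. The fit was tested on simulated data. By rule, values on each array are given for genes past the 1.6-fold rule and for the 4 largest called changes per direction, and genes of the further lists are named where they passed the 1.6-fold rule. Array values of *PEX5*, *PEX6*, *PXA2*, of *PXA1* in the untreated strains and of *PEX28* in the treated strains, and the other genes named outside the 30, were added after their values were seen. The 30 genes and the lists were chosen with earlier results of these data known. The further lists were shortened by 2 genes, which are not reported here. Alternatives were a replicate block, an intensity trend, each array left out, all probe sets tested, a filter on dim probe sets, a further quantile normalization, centring on array medians and another choice among probe sets. Precision is limited by 3 arrays a group.

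Same-numbered replicates deviated together, with r between 0.21 and 0.32 in W303, 0.22 and 0.43 between untreated strains and 0.29 and 0.44 between treated ones. In W303 the cultures were divided before treatment, per the methods, whereas between strains the pairing rests on these correlations.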

Additional observations from a re-analysis of the deposited data

How the results depend on the processing

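The number of arrays, 3 a group, limits the precision. Each comparison was repeated under 13 alternatives, besides 1.5-fold and 2-fold thresholds. With all probe sets tested, cisplatin in W303 left 1 gene higher and 1 lower of the 30, and over all genes 417 higher and 548 lower in place of 750 and 871. With 1 array left out, the latter ran from 430 to 918 and from 520 to 943, and the calls among the 30 genes from 1 to 3 higher and from 1 to 4 lower. The cause was not tested. Between the untreated strains, leaving out 1 array gave 9 to 11 genes higher, 0 to 1 lower and 0 to 1 by the 1.6-fold rule. There, 1 gene was called lower with an intensity trend, 1 gene passed the 1.6-fold rule after a further quantile normalization or centring on array medians, and 3 genes passed at 1.5-fold. Between the treated strains, leaving out 1 array gave 14 to 16 genes higher, 2 to 3 lower and 4 to 5 by the 1.6-fold rule, 1 gene passed at 2-fold, and a further quantile normalization moved the median to 0.24. With the replicate number as a block, cisplatin in W303 gave 4 genes higher and 4 lower, the untreated strains gave 10 and 0, and the treated strains gave 17 and 4. Beside the genes already given with their blocked values, the block changed the calls of *FOX2* (lost, adjusted p = 0.0541) and *CAT2* (lower, adjusted p = 0.0276) in W303 and of *ATG11* (lower, adjusted p = 0.0425) between the treated strains, and no other call of the 30 genes or the further lists. Of the calls among the 30 genes, 1 of 3 higher and 1 of 3 lower with cisplatin in W303 were kept under all 13 alternatives, as were 8 of 10 between the untreated strains, and 14 of 15 higher and 2 of 3 lower between the treated ones.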
